A study of Mus musculus with 10 samples.

Results

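The comparison of the K165A form of the histone methyltransferase G9a with the wild-type form rests on the 4 arrays whose titles name those forms, 2 of each, out of 10 arrays in all. The cells were mouse embryonic fibroblasts, connective tissue cells cultured from embryos, and their messenger RNA was read on Affymetrix 3' arrays. The cells of both groups had lost their own G9a. One group then received FLAG-tagged wild-type G9a (WT), and the other FLAG-G9a in which alanine replaces the lysine that the name K165A gives. Cells deleted for G9a that received an empty vector (delta) and cells that received FLAG-G9a H1093K, named a catalytic mutant in the labels, served as references, with 2 arrays each. The last pair of arrays, titled only as deleted, entered the estimate of the spread and no comparison. Despite its title, that pair had Ehmt2 signals of 1678 and 1750, the highest of the series. What transcript gave those signals is not known here, and key counts are also given without the pair. The sources used here do not name the vector, its promoter, the strain or the age of the embryos, nor whether each group was 1 clone. The series design text calls the 2 array analyses independent. No label states that they stem from separate cultures. Each p-value rests on the spread between the 2 arrays of a group, pooled over all groups, and in part on that of other probe sets. That spread may be technical.

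G9a, encoded by Ehmt2, places methyl groups on lysine 9 of histone H3, a mark that silences genes and is read by HP1 proteins through their chromodomains. The replaced lysine lies in a stretch of the G9a protein that resembles the tail of histone H3. G9a methylates itself there, and the methylated residue can bind HP1. An alanine in its place cannot be methylated, while the catalytic domain is untouched. The comparison asks whether messenger RNA levels differ when this residue is lost and the enzyme is kept.

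Signals are intensities on a linear scale, and differences are on the log2(signal + 16) scale, which understates the change of dim genes. The trimmed mean signal was between 500.1 and 500.2 on every array and the median between 181 and 200. The first WT and the first K165A array had more signal at the top of the range, with a 99th percentile of 7644 and 7315 against 5959 to 6707 on the other 8 arrays. The ratio of the 3' to the 5' actin probe sets was 1.36 and 1.29 in WT and 1.24 and 1.22 in K165A, and the Gapdh ratio was between 0.741 and 0.794 on all arrays. Whether these differences between arrays bear on any gene below was not tested. All 15 fibroblast markers examined were on the array and 11 passed the filter on low signal. The summed signal of the 15 was 58875 to 71465 in WT and 60832 to 66829 in K165A. Pdgfra, Lum, Dcn and Fap, also on that list, were too dim to be tested. Lum had a mean of 22.4 in WT and 14.1 in K165A, and Dcn 6.28 and 30.6. The fibroblast label was thus borne out by most of the list but not by these markers.

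For Ehmt2 itself, the difference between WT and K165A did not pass the threshold. Its brighter probe set read 676 and 620 in WT and 704 and 725 in K165A, against 473 and 415 in delta and 461 and 494 in H1093K. The K165A arrays were both above the WT arrays, and both groups were above delta and H1093K. K165A minus WT was 0.14 (95% interval -0.07 to 0.34, limma adjusted p = 1), which did not pass. The mean of WT and K165A was 1.52-fold above delta (limma adjusted p = 0.000753). A dimmer Ehmt2 probe set, which was not tested, read 40.9 and 106 in WT and 90.4 and 178 in K165A. No probe position is known here, so it is unclear whether these probe sets read the deleted exons or the introduced cDNA. Delta, with an empty vector, still read 473 and 415, so the part of the signal that came from the introduced forms is not known. The protein level of either form was not measured.

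Across the transcriptome, K165A and WT differed in 0 of 13575 probe sets tested (0%, limma, Benjamini-Hochberg adjusted p under 0.05). The count was 0 as well with the replicate number as a block, without the deleted pair and under each of the other settings tried. At an unadjusted p under 0.05 there were 429 probe sets (3.16%), of which 227 were higher in K165A (1.67%) and 202 lower (1.49%). With the replicate block there were 864 (6.36%), 435 higher (3.20%) and 429 lower (3.16%). Uniform p-values would give 5%, which lies above the share without the block and below the share with it. The unadjusted count was 806 without K165A replicate 2 and 186 without both number 1 arrays of WT and K165A. The smallest adjusted p was 0.436, and 0.0625 with the block. Differences ran from -1.39 to 1.19, with the 1st and 99th percentiles at -0.40 and 0.40 and the median at 0.002. Only 29 probe sets were over 1.5-fold higher in K165A (0.214%) and 27 over 1.5-fold lower (0.199%).

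The single arrays were compared in pairs. The second WT and the second K165A array correlated with Pearson's r of 0.9931 over probe sets, the highest of all pairs of arrays, and 123 probe sets (0.906%) were over 1.5-fold apart. The number 1 arrays of WT and K165A differed that far in 2.28% of probe sets. Pairs of unlike number differed in 2.40% and 3.57%. The 2 WT arrays differed from each other in 1.92% and the 2 K165A arrays in 3.68%. Over all 5 groups, 2 arrays of 1 group differed in 1.92% to 4.17%. Arrays of 1 group always have unlike numbers, so the 2.40% and 3.57% are the pairs to set beside these; both were above the WT pair and below the K165A pair. By the same measure H1093K arrays were 6.70% to 8.93% apart from WT arrays and 6.88% to 9.94% apart from K165A arrays.

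**Figure D1:**
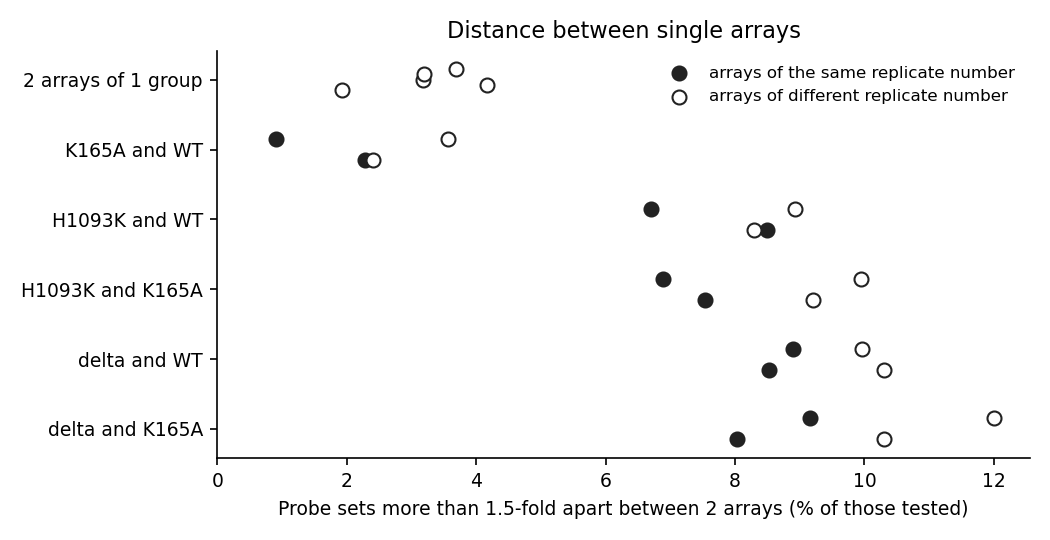
Share of the 13575 tested probe sets that were over 1.5-fold apart between 2 single arrays, in percent. Each point is a pair of arrays, filled where both carry the same replicate number; the 4 pairs of a K165A and a WT array lie between 0.906% and 3.57%, none above the highest pair of arrays of 1 group, while pairs of H1093K with either form start at 6.70%.

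A p that misses the threshold does not show that levels were equal, so the 95% interval of each difference was set against a bound of 1.5-fold in either direction. The whole interval lay within that bound for 11243 probe sets (82.8%), and for 12267 (90.4%) with the replicate block. It lay within 2-fold for 13299 (98.0%), and it held 0 for 13146 (96.8%). Without the deleted pair it lay within 1.5-fold for 11215. With no filter on low signal it did so for 12042 probe sets, only 53.2% of that larger set. With the filter at the 60th percentile it did so for 8467 (93.6%). Fewer intervals lay within the bound when any WT or K165A array was left out. The median interval reached 0.285 to either side on the log2 scale, or 1.22-fold. Bright genes were held more closely than dim ones: with probe sets split by signal into 5 equal bins, 50.3% of the dimmest bin lay within 1.5-fold, then 80.0%, 90.6% and 95.6%, and 97.6% of the brightest. In H1093K minus WT, which shares the WT arrays, 1090 probe sets passed (8.03%), 550 higher (4.05%) and 540 lower (3.98%), and 9487 intervals (69.9%) lay within 1.5-fold. That count was 1945 with the block, 563 without WT replicate 1, 644 without WT replicate 2, 548 without H1093K replicate 1 and 631 without H1093K replicate 2. Tested directly, K165A and H1093K differed in 1007 probe sets (7.42%). The direct count was 1852 with the block, 542 without H1093K replicate 1, 567 without H1093K replicate 2 and 571 without K165A replicate 1.

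**Figure D2:**
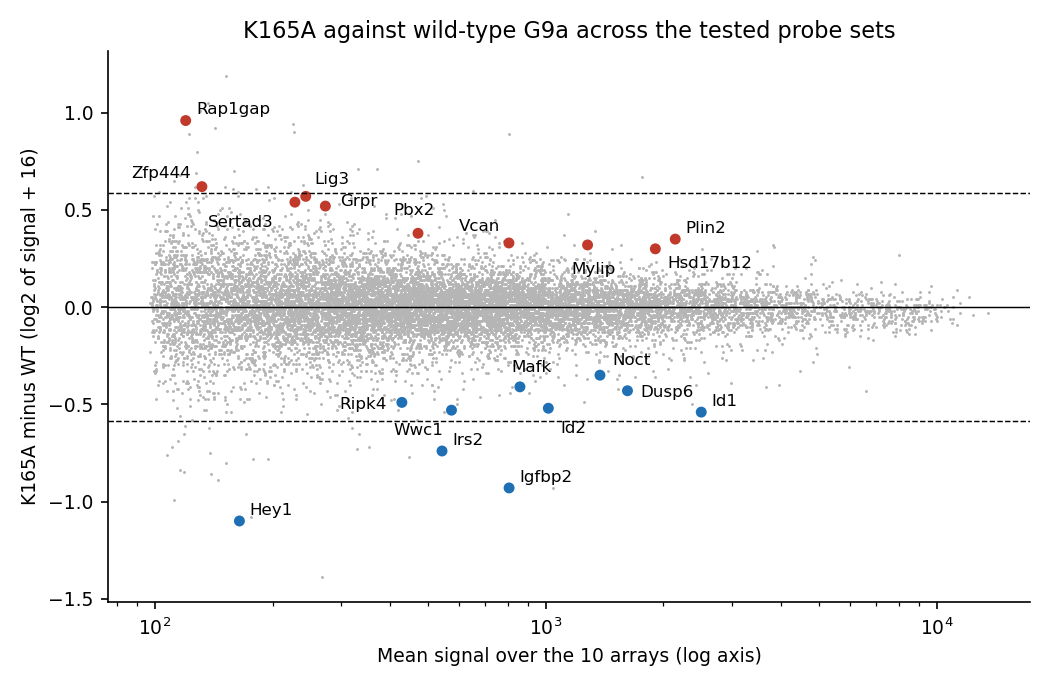
K165A minus WT on the log2(signal + 16) scale against the mean signal over the 10 arrays on a log axis, with 1 point per tested probe set. Dashed lines mark 1.5-fold; labelled points are the 10 genes of smallest p in each direction, red where K165A was higher and blue where it was lower, and none passed the adjusted threshold.

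The genes that responded to restored G9a were picked by the mean of WT and K165A minus delta. The estimate of this contrast is uncorrelated with K165A minus WT when all groups have the same number of arrays. A gene that only WT or only K165A moved has a smaller mean difference, so the choice favours genes that both forms moved alike. By limma, 2184 probe sets passed (16.1%), 995 higher (7.33%) and 1189 lower (8.76%) than in delta, and 3478 (25.6%) with the block. The count was 1914 without the deleted pair, 1251 without delta replicate 1 and 1083 without delta replicate 2. For 1957 of the 2184 (89.6%), the whole interval of K165A minus WT lay within 1.5-fold, beside 82.8% of all probe sets. Calling by p favours probe sets of small variance, whose intervals are narrow, so nothing is read from the gap between these shares. The number was 3248 with the block, 1109 without delta replicate 1, 951 without delta replicate 2 and 1081 without both number 1 arrays of WT and K165A. The median K165A minus WT was -0.013 over the probe sets higher than delta and -0.001 over the lower ones. Among the 272 that moved over 2-fold, 181 intervals (66.5%) lay within 1.5-fold, and the medians were -0.033 over the 153 higher and -0.068 over the 119 lower. In 66 of these 272 (24.3%) both K165A arrays were below both WT arrays, beside 13.0% of all probe sets, and in 30 (11.0%) both were above, beside 14.6%. The 66 were 32 of the 153 higher than delta (20.9%) and 34 of the 119 lower than delta (28.6%). K165A thus lay on the delta side of WT in the 32 and on the far side in the 34. The 30 were 18 of the 153 (11.8%), on the far side, and 12 of the 119 (10.1%), on the delta side. These counts were not tested.

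Per gene, 578 of 7741 rose over delta (7.47%) and 792 fell (10.2%). Among the 10 that rose most were regulators of development and secreted signals. Sfrp2, a secreted modulator of Wnt signalling, read 8822 and 7499 in WT and 7859 and 7053 in K165A, against 484 and 112 in delta and 104 and 91.8 in H1093K. The WT and K165A arrays overlapped, and the rise over delta was 30.8-fold. Its K165A minus WT difference was -0.13 with a wide interval of -1.15 to 0.90, and the size of the rise rested on delta: 4.95 on the log2 scale became 5.93 without delta replicate 1 and 3.96 without delta replicate 2. Eomes, a T-box transcription factor, read 1776 and 1919 in WT and 2029 and 1714 in K165A, with delta at 306 and 339. The groups overlapped, at a difference of 0.01 (-0.34 to 0.36). Osr2, a zinc finger factor of limb and palate development, read 1605 and 1648 in WT and 1488 and 1606 in K165A. These overlapped too (-0.07, interval -0.35 to 0.21), at 6.88-fold above delta. The angiopoietin gene Angpt1 read 591 and 521 in WT and 595 and 571 in K165A, against 18.9 and 2.60 in delta, where its mean was too low for a fold.

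Other genes of that group were closer to the edge of the interval. Bmp4, a bone morphogenetic protein, read 623 and 739 in WT and 577 and 507 in K165A, against 82.2 and 107 in delta and 153 and 172 in H1093K. Both K165A arrays lay under both WT arrays, by -0.32 (-0.63 to -0.01; limma adjusted p = 1). The fibrillin gene Fbn2, a part of elastic microfibrils, read 632 and 647 in WT and 463 and 554 in K165A, without overlap (-0.33, interval -0.67 to 0.01), at 8.91-fold above delta. Nrep, Shisa2 and Mef2c differed by 0.09, 0.13 and 0.12.

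The 10 genes that fell most included smooth muscle, interferon and keratin genes. Ppbp, a platelet-type CXC chemokine, read 326 and 282 in WT and 252 and 257 in K165A, against 3120 and 3499 in delta and 2656 and 2473 in H1093K. It was 11.3-fold below delta, and both K165A arrays lay slightly under both WT arrays (-0.24, interval -0.45 to -0.03; limma adjusted p = 1). Krt7, a simple epithelial keratin, overlapped at 367 and 310 in WT and 386 and 358 in K165A, against 2660 and 2557 in delta. Oas2, an interferon-induced sensor of double-stranded RNA, overlapped at 181 and 133 against 151 and 118, with delta at 1350 and 1354. Aldh1a1, which makes retinoic acid, read 198 and 208 in WT and 433 and 191 in K165A, so that 1 K165A array stood apart from the other 3. Over all 20 genes, K165A minus WT ran from -0.93 in Igfbp2 to 0.48 in Aldh1a1, and all 20 passed against delta under each setting that measured them.

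**Figure D3:**
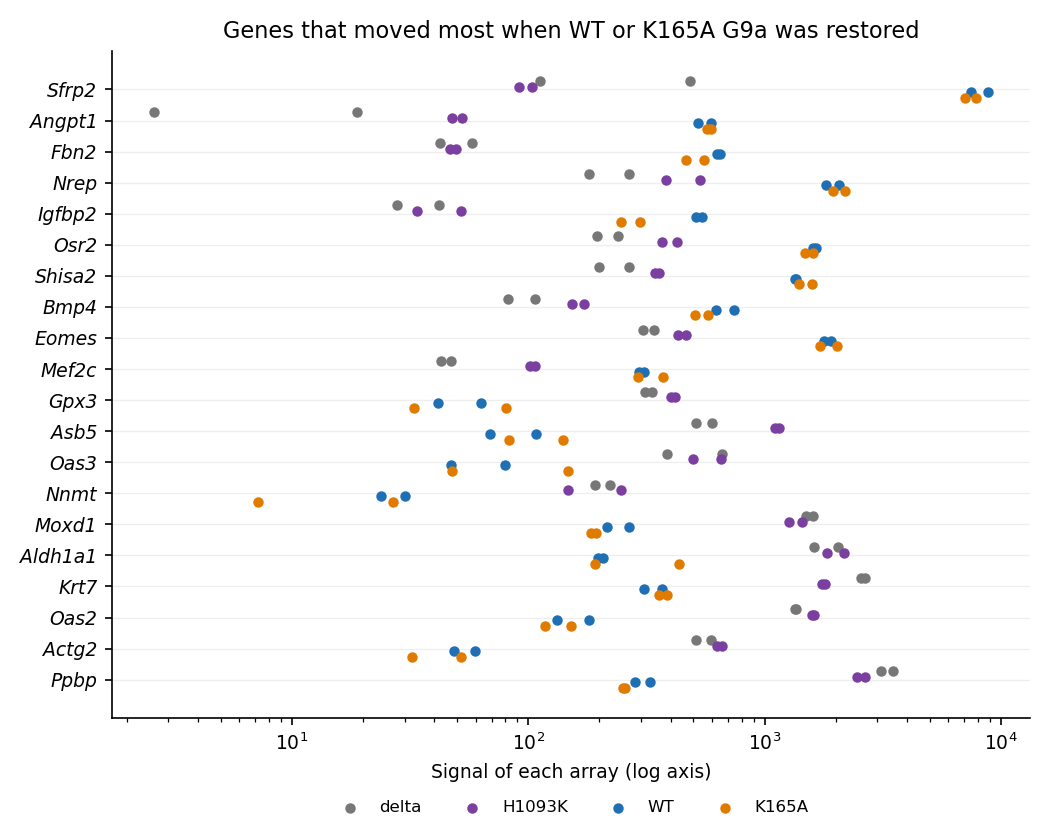
Signal of each array on a log axis for the 10 genes that rose most and the 10 that fell most in the mean of WT and K165A against delta. In most rows the WT and K165A points sit together, far from delta and H1093K. The choice by the mean of both forms favours such rows. Igfbp2 is the gene whose K165A arrays, at 296 and 248, lie farthest below its WT arrays, at 546 and 514.

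The gene that joined both descriptions was Igfbp2, which encodes a secreted protein that binds insulin-like growth factors. It read 546 and 514 in WT, 296 and 248 in K165A, 41.9 and 27.8 in delta and 51.7 and 34.0 in H1093K. The K165A arrays lay under WT and above delta and H1093K, with no overlap. K165A was 1.90-fold under WT (log2 difference -0.93, interval -1.34 to -0.52), at a limma adjusted p of 0.641 and 0.0969 with the block, which did not pass. Tested against H1093K, K165A was higher by 2.30 (1.89 to 2.71; limma adjusted p = 4.83e-05), a value of 1.65 with a pseudocount of 64. Irs2, an adaptor of the insulin and IGF receptors, read 847 and 877 in WT and 444 and 589 in K165A, beside 499 and 617 in delta and 455 and 400 in H1093K. Its K165A arrays lay under WT and among delta (-0.74, interval -1.06 to -0.41). The limma adjusted p of Irs2 was 0.641, and 0.159 with the block.

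The genes of smallest p with K165A lower included the Id genes, which encode inhibitors of helix-loop-helix transcription factors and are targets of BMP signalling. Id1 read 3373 and 3215 in WT, 2350 and 2165 in K165A, 2917 and 2960 in delta and 1784 and 1543 in H1093K. The K165A arrays lay under WT and delta and above H1093K. The difference from WT was 1.46-fold (-0.54, interval -0.74 to -0.35), at a limma adjusted p of 0.436, and 0.0625 with the block. Id2 read 1359 and 1450 in WT, 977 and 970 in K165A, 879 and 784 in delta and 662 and 620 in H1093K, again without overlap of WT and K165A. It differed from WT by -0.52 (-0.70 to -0.34; limma adjusted p = 0.436, and 0.0741 with the block). The other Id2 probe sets tested gave -0.72 and -0.04, so they disagreed on the size. Against H1093K, Id2 was higher in K165A by 0.59 (0.41 to 0.77; limma adjusted p = 0.00142). Id1 was higher by 0.44 (0.24 to 0.64; limma adjusted p = 0.0138, from 0.00171 to 0.114 over the settings). That call was lost without H1093K replicate 2 (0.114), without K165A replicate 1 (0.103) and with only the arrays compared (0.0601). Id3, at 5684 and 5251 in WT and 5283 and 4758 in K165A, overlapped.

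Hey1, a transcriptional repressor that Notch and BMP signals induce, had the largest difference of these genes. It read 273 and 247 in WT, 117 and 108 in K165A, 293 and 259 in delta and 129 and 134 in H1093K. K165A arrays lay under WT and delta and a little under H1093K. The difference from WT was 2.15-fold (-1.10, interval -1.55 to -0.66; limma adjusted p = 0.555, and 0.159 with the block). From H1093K it differed by -0.20 (-0.65 to 0.25), which did not pass. Hes1, another Notch target, read 4818 and 4672 in WT and 4251 and 3841 in K165A (-0.23, interval -0.44 to -0.02).

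A second set of these genes respond quickly to growth factor signals. Dusp6, a phosphatase that acts on ERK kinases, read 1532 and 1805 in WT and 1190 and 1265 in K165A (-0.43, interval -0.66 to -0.21). Mafk, a small Maf transcription factor, read 1202 and 1114 in WT and 836 and 897 in K165A (-0.41), and Noct, the circadian gene of nocturnin, 1514 and 1511 in WT and 1124 and 1244 in K165A (-0.35). In all 3 the arrays of WT and K165A did not overlap. Their limma adjusted p was between 0.704 and 0.901, and between 0.159 and 0.187 with the block. Against the same WT arrays, H1093K was lower too, by -0.54 in Dusp6 and -0.49 in Mafk (limma adjusted p = 0.00848 and 0.00486). Each call was lost in 2 of 20 settings. K165A minus H1093K was 0.10 in Dusp6 and 0.08 in Mafk, which did not pass. In Noct, H1093K minus WT was -0.05, which did not pass either. Wwc1, a regulator of the Hippo pathway, was at 586 and 525 in WT, 397 and 362 in K165A and 869 and 941 in delta. Ripk4, a kinase of epidermal differentiation, was at 525 and 497 in WT and 358 and 358 in K165A. Second probe sets gave smaller differences, -0.24 for Wwc1 and -0.20 for Ripk4. Wwc1 and Ripk4 were also lower in K165A than in H1093K, by -0.73 and -0.70 (limma adjusted p = 0.00135 and 0.00451).

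On the other side stood 10 genes of smallest p with K165A higher, none of them past the threshold. Their limma adjusted p was between 0.785 and 1, and between 0.21 and 0.533 with the block. Grpr, the receptor of gastrin-releasing peptide, read 226 and 225 in WT and 335 and 325 in K165A, a difference of 0.52 (0.27 to 0.77) that a second probe set put at 0.38. Hsd17b12, an enzyme of fatty acid elongation, read 1262 and 1366 in WT and 1689 and 1551 in K165A (0.30, interval 0.13 to 0.47), with 0.24 in a second probe set. Neither gene overlapped between the groups. Mylip, a ubiquitin ligase that degrades the LDL receptor, read 1224 and 1276 in WT and 1582 and 1544 in K165A (0.32). Plin2, a coat protein of lipid droplets, read 1807 and 1715 in WT and 2466 and 2060 in K165A (0.35). Beside the same WT arrays, H1093K was higher too, by 0.78 in Hsd17b12, 0.58 in Plin2 and 0.28 in Mylip (limma adjusted p = 0.000147, 0.00514 and 0.0454). The Mylip call was lost in 15 of 20 settings. For Grpr, H1093K minus WT was 0.42, which did not pass.

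For others the probe sets of the gene disagreed. Lig3, a DNA ligase of repair, was at 153 and 168 in WT and 247 and 243 in K165A (0.57), but its other tested probe sets gave -0.19 and -0.14. Vcan, a large proteoglycan of loose matrix, was at 772 and 908 in WT and 1073 and 1041 in K165A (0.33), with -0.13 and -0.05 in the others. Pbx2 gave 0.38 against 0.06 and -0.11, and Sertad3 0.54 against 0.03. Zfp444 and Rap1gap, both dim, lay higher by 0.62 and 0.96, Rap1gap at 49.6 and 33.2 in WT and 103 and 86.8 in K165A. A second Zfp444 probe set, too dim to be tested, went the other way, at 106 and 80.3 in WT and 70.8 and 77.0 in K165A. H1093K minus WT was 0.51 in Lig3 and 1.05 in Rap1gap (limma adjusted p = 0.0269 and 0.0407). In Vcan it had the opposite direction, at -0.51 (limma adjusted p = 0.00673). Each of these calls was lost in some settings. Pbx2, Sertad3 and Zfp444 did not pass in H1093K minus WT. These 20 genes of smallest p kept their direction under each setting that measured them. Their choice by p made this all but certain, since WT and K165A arrays did not overlap in any of them.

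**Figure D4:**
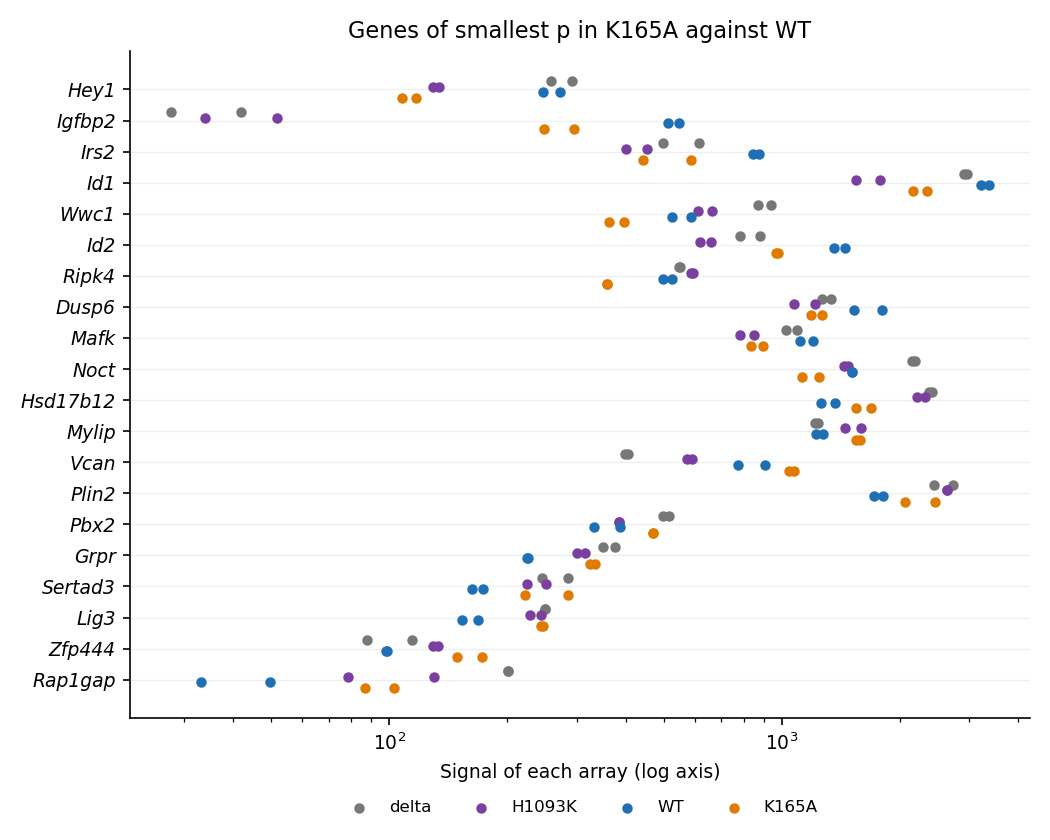
Signal of each array on a log axis for the 20 genes of smallest p in K165A against WT, ordered by their difference. WT and K165A points are apart in every row, as the choice by p ensures; where delta and H1093K lie differs from gene to gene, with Igfbp2 far below both forms in those groups.

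Gene families gave a broader view, each gene taken by its brightest probe set, over 7741 genes in all. Of 35 families, 34 had members that could be tested, with 0 members called. Their medians of K165A minus WT ran from -0.216 to 0.182, and 7 lay over 0.1 from 0. Over all genes, 86.3% of intervals lay within 1.5-fold, both K165A arrays were above both WT arrays in 13.5% and below them in 14.2%, and 2.75% had an unadjusted p under 0.05, 1.29% higher and 1.46% lower in K165A. Family counts are read beside these shares, as a description without a test.

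Families of the basic machinery of the cell had medians near 0. All 34 proteasome subunit genes had intervals within 1.5-fold, with a median of 0.013 and a range of -0.13 to 0.10. Psmb7, a catalytic core subunit, read 4990 and 4812 in WT and 5006 and 5072 in K165A, and Psma3 4697 and 4442 against 4526 and 4442. All 40 DNA replication genes lay within the bound as well (median -0.005), among them the helicase subunit Mcm7, at 8716 and 7063 in WT and 8581 and 7246 in K165A. Of 55 mitochondrial respiratory chain genes, 54 lay within it (median 0.002), and of 48 mitosis genes 47 (median 0.028). In the mitosis list, 10 genes were higher in both K165A arrays (20.8%) and 1 lower (2.08%). Among 42 ribosomal protein genes 38 lay within the bound (median -0.043), a median that ran from -0.193 to 0.117 over the settings. Collagen genes (18 of 20, median 0.025) and smooth muscle and actin genes (32 of 33, median -0.031) lay close as well.

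Chromatin genes, among them partners of G9a and readers of its mark, had medians near 0 as well. Of 18 genes of H3K9 methylation and HP1 binding, Ehmt2 among them, 17 had intervals within 1.5-fold, and the median was 0.000 with a range of -0.22 to 0.27. Trim28, a corepressor that recruits H3K9 methyltransferases, read 2650 and 2863 in WT and 2567 and 2938 in K165A, an overlap with a difference of 0.00 to 2 decimals and an interval of -0.23 to 0.22. The deacetylase Hdac1 read 2406 and 2501 in WT and 2775 and 2568 in K165A (0.12, interval -0.05 to 0.30). Atf7ip, a cofactor of the H3K9 methyltransferase SETDB1, and Atrx, a remodeller of heterochromatin, lay at the ends of the family with -0.22 (-0.51 to 0.07) and 0.27 (-0.07 to 0.62). The HP1 genes Cbx5 and Cbx1 were chosen after their values were seen. Cbx5 overlapped at 2435 and 2593 in WT and 2407 and 2642 in K165A, and Cbx1 did not, at 1309 and 1331 against 1191 and 1217 (-0.13, interval -0.31 to 0.05). Among 18 genes of H3K9 demethylation and DNA methylation, 17 lay within the bound (median -0.002), with Dnmt1, the maintenance DNA methyltransferase, at 3240 and 3063 in WT and 3083 and 3211 in K165A. Polycomb genes (21 of 22, median 0.008) and histone genes (9 of 10, median 0.006) did the same.

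Germline and pluripotency genes, known targets of G9a silencing in other cells, could not be compared. Of 23 on the array, 0 passed the filter on low signal, and 11 had a mean under 16. Their group means were 2.03 to 84.0 in WT and 1.78 to 112 in K165A. Of 19 imprinted genes, 14 had intervals within 1.5-fold (73.7%, beside 86.3% of all genes), with a median of -0.017. Ndn, a paternally expressed growth regulator, read 261 and 303 in WT and 204 and 213 in K165A, without overlap (-0.40, interval -0.74 to -0.06). Grb10, an adaptor of the insulin receptor, read 4394 and 4785 against 4306 and 4369.

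**Figure D5:**
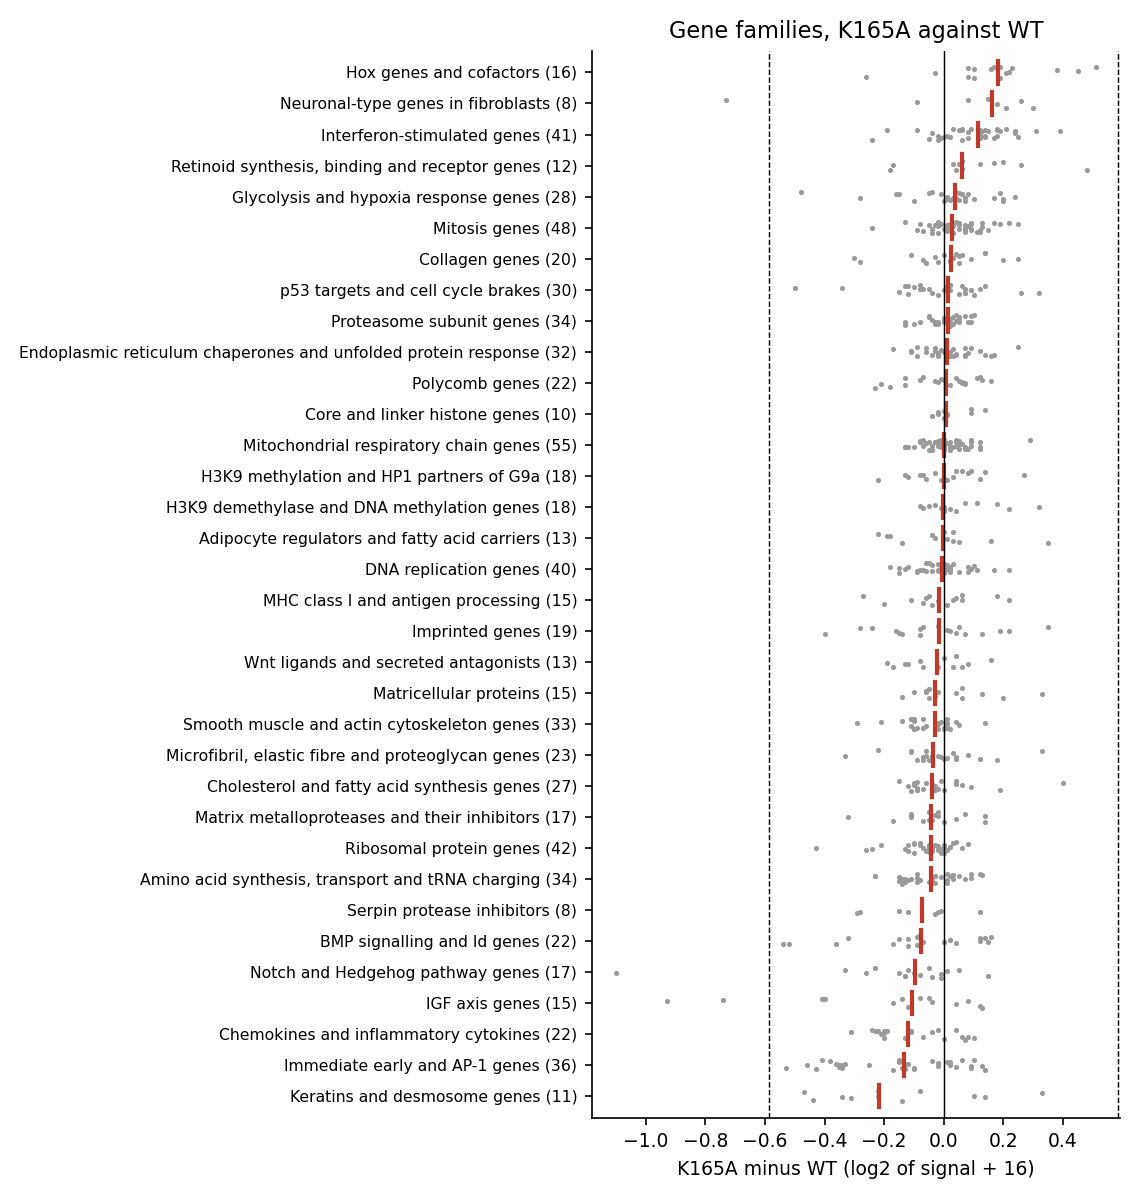
K165A minus WT on the log2(signal + 16) scale for the tested members of 34 gene families, with the number of members after each name. Each grey point is a gene, the red bar is the family median and dashed lines mark 1.5-fold; medians run from -0.216 in keratins and desmosome genes to 0.182 in Hox genes and cofactors, and no member passed the adjusted threshold.

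Immediate early and AP-1 genes, which growth factors and stress induce within minutes, lay lower in K165A. The median over 36 genes was -0.132, and -0.179 to -0.089 over the settings. Both K165A arrays were under both WT arrays in 18 (50.0%) and above them in 1 (2.78%), and 10 had an unadjusted p under 0.05, all lower (14 with the block). Besides Dusp6, Mafk and Noct, these included the transcription factor genes Klf10, at 638 and 706 in WT and 432 and 539 in K165A (-0.46), and Egr3, at 206 and 144 against 117 and 112 (-0.53). Bright members lay on both sides of this pattern. The AP-1 gene Fosb, chosen after its values were seen, read 3994 and 4429 in WT and 3065 and 3589 in K165A, without overlap. It differed by -0.34 (interval -0.60 to -0.08), at a limma adjusted p of 1, and 0.187 with the block. Egr1 read 14784 and 10531 in WT and 15740 and 11282 in K165A, and the matricellular gene Ccn1 10512 and 8256 against 10958 and 8337, both with overlap. In Egr1 and Ccn1 the number 1 arrays were the brighter ones.

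Signalling families on the lower side held single members with larger differences. Among 15 IGF axis genes the median was -0.107, with 7 lower in both K165A arrays (46.7%) and 2 higher (13.3%), and Igfbp2 and Irs2 at the end. Among 22 BMP signalling and Id genes it was -0.075, with 7 lower (31.8%) and 0 higher; that median was 0.009 without WT replicate 2 and 0.041 without K165A replicate 1, so its direction rested on those arrays. The 17 Notch and Hedgehog genes had a median of -0.097, with 4 lower and 1 higher. Notch2, a receptor, overlapped at 2470 and 2229 in WT and 2330 and 2321 in K165A.

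Chemokines and inflammatory cytokines had a median of -0.119 over 22 genes, 7 of them lower in both K165A arrays (31.8%) and 1 higher (4.55%). The monocyte attractant Ccl2 read 1082 and 1074 in WT and 926 and 918 in K165A (-0.22), and the neutrophil attractant Cxcl1 2853 and 3124 against 2593 and 2592 (-0.20). Both were lower in both K165A arrays, and neither passed (limma adjusted p = 1).

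Keratins and desmosome genes had the lowest median, -0.216 over 11 genes, with 6 lower in both K165A arrays (54.5%) and 1 higher (9.09%). Krt19 read 290 and 269 in WT and 231 and 212 in K165A (-0.31), and Krt10 190 and 148 against 143 and 99.3 (-0.44). These are dim genes, and 5 of the 11 intervals (45.5%) lay within 1.5-fold. The summed signal of 8 epithelial markers was 823 to 890 in WT and 673 to 779 in K165A. Only 3 of the 8 were tested, Krt8, Krt18 and Krt19, which are members of the keratin list themselves. Of the others, too dim to be tested, the cadherin gene Cdh1 had a mean of 171 in WT and 128 in K165A, while Cldn4 and Cldn7 had means of 56.8 and 38.5 in WT and 68.1 and 43.6 in K165A. The defining markers Epcam and Esrp1 were near 0, at means of 5.22 and 1.63 in WT and 7.67 and 3.25 in K165A. The part of other cell types in this difference was not tested. In bulk RNA, fewer cells of a type and less RNA per cell cannot be told apart. Summed endothelial markers were 306 to 326 in WT and 291 to 377 in K165A, and leukocyte markers 647 to 701 and 580 to 724, each overlapping.

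Families with medians over 0.1 were the Hox genes, the neuronal-type genes and the interferon-stimulated genes. Hox genes and cofactors, which set position along the body axis, had a median of 0.182 over 16 genes (0.117 to 0.237 over the settings), with 8 higher in both K165A arrays (50.0%) and 0 lower. Hoxa5 read 180 and 223 in WT and 296 and 265 in K165A (0.45, interval 0.15 to 0.76), and Hoxd8 90.5 and 104 against 149 and 140 (0.51, interval 0.17 to 0.85). The brightest, Hoxa9, read 1473 and 1396 against 1537 and 1502, a difference of 0.08. In this family, 8 of 16 intervals lay within 1.5-fold.

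Interferon-stimulated genes, which include antiviral effectors and sensors, had a median of 0.115 over 41 genes (0.050 to 0.117 over the settings). In 17 (41.5%) both K165A arrays were above both WT arrays, and in 1 (2.44%) below. Stat2, a transcription factor of the interferon response, read 479 and 535 in WT and 662 and 599 in K165A (0.31, interval 0.07 to 0.54). The guanylate-binding protein gene Gbp2 read 512 and 568 against 601 and 681 (0.24). Most of these differences were small, and 35 of 41 intervals (85.4%) lay within 1.5-fold, close to the 86.3% of all genes. Ifitm3, the brightest, overlapped at 11308 and 9170 in WT and 10962 and 9275 in K165A. The related class I antigen presentation genes were centred on 0, with a median of -0.015 over 15 genes.

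Among genes outside these groups, the cell adhesion molecule gene L1cam stood out within the neuronal-type genes, at 620 and 667 in WT, 363 and 399 in K165A, 192 and 222 in delta and 297 and 161 in H1093K. Its K165A arrays lay under WT and above delta and H1093K, at a difference from WT of -0.73 (-1.31 to -0.15; limma adjusted p = 1). The median of that list over 8 genes was 0.163, with Ncam1, another adhesion molecule gene, at 523 and 575 in WT and 627 and 644 in K165A (0.21, interval 0.01 to 0.40). Gadd45a, a stress gene of DNA repair and demethylation, read 232 and 264 in WT and 288 and 339 in K165A (0.32, interval 0.05 to 0.58), and Hk2, a hexokinase of glycolysis, 405 and 391 against 323 and 244 (-0.48, interval -0.81 to -0.15). Neither overlapped between the groups, and neither passed (limma adjusted p = 1).

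Metabolic and stress families were centred near 0 around single genes that lay apart. Cholesterol and fatty acid synthesis genes had a median of -0.038, with 24 of 27 intervals within 1.5-fold, and Hmgcs1, an early enzyme of the sterol pathway, overlapped at 3180 and 2695 in WT and 2701 and 2572 in K165A. Among 34 genes of amino acid supply the median was -0.044, with 7 lower in both K165A arrays (20.6%) and 2 higher (5.88%). Asns, the asparagine synthetase, was one of these, at 517 and 540 in WT and 429 and 465 in K165A (-0.23, interval -0.42 to -0.05). Endoplasmic reticulum chaperones had a median of 0.010, with 30 of 32 intervals within the bound, and the chaperone gene Hspa5 overlapped at 6474 and 5448 against 5747 and 5681. Plk3, a stress-responsive kinase among 30 p53 targets with a median of 0.014, read 188 and 174 in WT and 111 and 136 in K165A (-0.50, interval -0.88 to -0.12). None of these genes passed the adjusted threshold.

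Retinoid genes lay slightly higher, with a median of 0.061 over 12 genes, 5 of them higher in both K165A arrays (41.7%) and 1 lower (8.33%). Rdh10, which oxidises retinol, read 2108 and 2135 in WT and 2325 and 2466 in K165A (0.17), and the receptor gene Rarb 480 and 556 against 586 and 659 (0.26). Neither overlapped, and neither passed (limma adjusted p = 1). The extracellular matrix families had medians near 0. Matrix metalloproteases and their inhibitors had 16 of 17 intervals within 1.5-fold (median -0.042), with 5 lower in both K165A arrays (29.4%) and 1 higher (5.88%). The gelatinase Mmp2 overlapped at 4526 and 4381 in WT and 4428 and 4506 in K165A. Matricellular proteins had 14 of 15 (median -0.028), and 2 of them had an unadjusted limma p under 0.05, both higher. Ccn4 read 931 and 1238 in WT and 1357 and 1348 in K165A (0.33). The collagen-binding Sparc was at 13303 and 10699 in WT and 12117 and 10746 in K165A, again with overlap.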

How the data were processed

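Messenger RNA was measured on 10 arrays in 5 groups of 2, grouped by sample title. The authors deposited signal intensities (linear) from GCOS 1.4, per the submitters' processing notes; its scaling options are unknown here. They were used without further scaling. Of 22690 probe sets, 64 controls were left out. Signals were taken as log2(signal + 16). The 13575 probe sets whose mean lay above the 40th percentile were tested, leaving out the 1 probe set exactly at it; 12526 had 1 gene by the platform annotation, for 7741 genes. In R 4.3.3, a limma 3.58.1 model (lmFit, eBayes, trend on) with a mean for each group took in all 10 arrays (5 residual and 4.73 prior degrees of freedom). The code was first run on simulated data with independent arrays, which does not cover a shared effect of the replicate number. The number of arrays limits the precision, and an exact permutation test of 2 arrays against 2 cannot give p below 0.333, so none is reported.

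The members and the 35 gene lists were chosen with earlier results of these data known. Named genes are, per gene at its brightest probe set, the 10 of smallest p in each direction, the 10 that rose and the 10 that fell most against delta, and in each list the 2 brightest members, the 2 of smallest p and the 2 of largest difference, with Ehmt2 and the cell type markers. Pairing was checked because arrays of all groups share the numbers 1 and 2. Deviations of like-numbered arrays from their group means correlated at 0.234 to 0.527 in all 10 pairs of groups. The numbers were thus taken to pair the samples, and the fit with the replicate block is given where it changes a count by over 1.5 times. Gene intervals and adjusted p are without the block unless stated. Intervals were wider that way, with a median of 0.285 to either side on the log2 scale, against 0.236 with the block. The block lowered adjusted p of K165A minus WT for many genes and brought none past the threshold. Alternatives varied the pseudocount, the filter, the scaling, the arrays in the fit, the block and the variance trend, and left out each array in turn.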

Additional observations from a re-analysis of the deposited data

How the results depend on the processing

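K165A minus WT called 0 probe sets in all 21 alternatives, of which leaving out both number 1 arrays of WT and K165A was chosen after seeing the data. Without 1 array at a time, that count was 0 throughout, intervals within 1.5-fold numbered 8976 to 11387, calls against delta 1083 to 1970, those of them within 1.5-fold 951 to 1745, calls in H1093K minus WT 548 to 1034 and in K165A minus H1093K 542 to 948. Where an array was left out, the lone array of its group was assumed to vary like the other groups. The replicate block, which follows the pairing of the arrays, gave 3478, 3248, 1945 and 1852 for the last 4 counts, and changed no call of K165A minus WT. Using only the arrays compared gave 663 calls in K165A minus H1093K. Without both number 1 arrays, 1081 of the calls against delta had intervals within 1.5-fold. The causes were not tested. The sign of K165A minus WT was the same in all alternatives for 113 of 181 named genes and for 18 of 34 family medians. Many named genes, the 20 of smallest p among them, were picked by p or difference, which favours a kept sign. Signal limited the dim genes, of which 50.3% in the dimmest of 5 bins were bounded within 1.5-fold. A pseudocount of 64 in place of 16 moved the rise of Igfbp2 against delta from 2.98 to 2.18 on the log2 scale and that of Fbn2 from 3.16 to 2.48.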
